A study of Mus musculus with 18 samples.

Results

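The claudins and E-cadherin group held 10 genes, chosen by symbol from the count tables: 8 claudins (Cldn2, Cldn3, Cldn4, Cldn7, Cldn8, Cldn12, Cldn15 and Cldn23), the E-cadherin gene Cdh1, and Epcam, whose protein binds claudin-7. They are 10 of 43346 genes in the count table, and all 10 were among the 26717 genes with a mean count above 0 that were tested. RNA was sequenced from Lgr5+ cells of small intestinal (SI) and large intestinal (LI) crypts of untreated mice of genotype Lgr5_eGFP_Iris_creERT2 on C57BL/6, aged between 8 and 20 weeks by the sample labels. Cells positive for EPCAM were sorted as GFP high, medium or low, which stand for centre, border and row >3 Lgr5+ cells, with 3 replicates for each of the 6 groups and 18 libraries in all. All groups carry the GFP and CreERT2 knock-in at the Lgr5 locus, so the GFP gate follows that locus, and all passed the same EPCAM gate, so the Epcam level was measured in cells already selected on its protein. The sources used here do not say which mouse stands behind a replicate number, nor from which SI segment crypts came, so p-values measure the spread between these samples. The submitters counted between 8312093 and 31940965 reads on genes per library.

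Tight junctions seal the space between neighbouring epithelial cells at their apical end, and claudins are the membrane proteins that form their strands. Some claudins, such as claudin-3, claudin-4 and claudin-8, mainly tighten the seal, whereas claudin-2 and claudin-15 form pores that let small cations and water pass. E-cadherin holds cells together at the adherens junction below, through calcium-dependent binding to E-cadherin of the neighbour and through catenins inside the cell. EpCAM stabilises claudin-7 at the lateral membrane of intestinal cells. In the intestine claudin-2 is known as a claudin of crypts, and the crypt base is where Lgr5+ stem cells sit.

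All 10 genes were placed on GRCm38 (mm10), the build the submitters aligned to, from GENCODE M21. Cldn3 (chromosome 5, 134986214 to 134987472, plus strand) and Cldn4 (chromosome 5, 134945119 to 134946934, minus strand) are neighbours of a single exon block each, 39279 bases apart. Cldn15 (136966616 to 136975858, plus strand) and Cldn12 (5489537 to 5514958, minus strand) lie on the same chromosome 5. Cdh1 (106603351 to 106670246, plus strand) and Cldn23 (35824712 to 35826559, minus strand) lie on chromosome 8. Cldn2 is on chromosome X (139800828 to 139811386, plus strand), Cldn7 on chromosome 11 (69964779 to 69967885, plus strand), Cldn8 on chromosome 16 (88560828 to 88563183, minus strand) and Epcam on chromosome 17 (87635979 to 87651129, plus strand). Among the 10 genes, Cldn3 shared exon bases with another gene: 40 bases with Wbscr25 on the opposite strand, which had 222 counts over all libraries against 66904 for Cldn3.

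The 250 bases before the start of 4 of these genes are shown, because the results below turn on them: Cldn2, which had its lowest levels in row >3 cells, the neighbours Cldn3 and Cldn4, which had their highest levels there, and Epcam, which varied with Cldn7 from library to library. The sequences are from RefSeq on GRCm38.p6, which held a promoter for 7 of the 10 genes (not matched: Cldn8, Cldn23 and Cdh1). They run 5′ to 3′ on the strand of the gene. Capitals mark matches, on either strand, to the core promoter box TATAAA, the E-box CAGGTG that Snail and Zeb factors bind, CTTTGAT of TCF/LEF factors, AGATAA of GATA factors, TTTATG of CDX factors and the GC-rich box GGGCGG, and no 2 matches overlapped.
Cldn2 (chrX:139800558-139800807, plus strand): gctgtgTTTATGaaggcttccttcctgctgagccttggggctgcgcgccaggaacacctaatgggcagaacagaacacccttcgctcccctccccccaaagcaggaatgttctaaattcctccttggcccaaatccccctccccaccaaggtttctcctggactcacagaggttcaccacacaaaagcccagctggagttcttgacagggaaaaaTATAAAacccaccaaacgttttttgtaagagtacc
Cldn3 (chr5:134985964-134986213, plus strand): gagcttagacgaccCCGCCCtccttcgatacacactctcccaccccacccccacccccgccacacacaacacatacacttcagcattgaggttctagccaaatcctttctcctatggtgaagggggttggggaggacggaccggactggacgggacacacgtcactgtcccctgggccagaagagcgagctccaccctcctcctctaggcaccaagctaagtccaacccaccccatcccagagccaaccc
Cldn4 (chr5:134946935-134947184, minus strand): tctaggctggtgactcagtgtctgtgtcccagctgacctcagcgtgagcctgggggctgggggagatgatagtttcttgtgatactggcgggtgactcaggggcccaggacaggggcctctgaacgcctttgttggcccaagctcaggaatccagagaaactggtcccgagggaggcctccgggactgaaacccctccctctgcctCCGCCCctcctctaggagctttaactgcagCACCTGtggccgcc
Epcam (chr17:87635729-87635978, plus strand): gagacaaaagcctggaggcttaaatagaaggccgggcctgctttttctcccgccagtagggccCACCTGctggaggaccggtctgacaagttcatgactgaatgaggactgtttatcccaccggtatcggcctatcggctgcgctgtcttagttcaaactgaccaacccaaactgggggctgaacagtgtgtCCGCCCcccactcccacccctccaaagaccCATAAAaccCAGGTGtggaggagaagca

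In these windows the Cldn2 promoter held TATAAA 35 bases before its RefSeq start and TTTATG 244 bases before it. The Cldn3 promoter held CCGCCC, a GC box on the other strand, 236 bases before the start. The Cldn4 promoter held CACCTG, the E-box read on the other strand, at 14 bases and CCGCCC at 44 bases. The Epcam promoter held CACCTG at 187, CCGCCC at 58, CATAAA, the CDX letters on the other strand, at 28, and CAGGTG at 19 bases. Of 32851 promoters of this length, 12.4% held the TATA box letters, 17.2% the E-box, 3.21% the TCF/LEF letters, 9.99% the GATA letters, 10.8% the CDX letters and 32.7% the GC box, so each match is a description of the letters only.

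The sort was checked on Lgr5. Its normalised count (the raw count divided by the submitters' size factor of the library) was 5252, 4191 and 2434 in SI centre, 1610.3, 2028 and 157 in SI border, and 169.6, 279.6 and 28.1 in SI row >3 cells of numbers 1, 2 and 3. In the LI it was 2575, 2327 and 2176 in centre, 1676, 1492 and 1184 in border, and 134, 466 and 262 in row >3 cells. Lgr5 thus followed the GFP gate within each replicate number of both sites. The 3 SI libraries of number 3 stood apart. The summed level of 8 stem cell markers was 1809 CPM (counts over the effective library size) in the centre, 372 in the border and 211 in the row >3 library of that number, and at least 5402, 2130 and 486 CPM in the other SI libraries of these groups. The number of the 10 genes called and most single-gene tests of SI row >3 against SI centre are therefore also given without these 3 libraries, and other SI values are over all libraries unless stated.

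**Figure D1:**
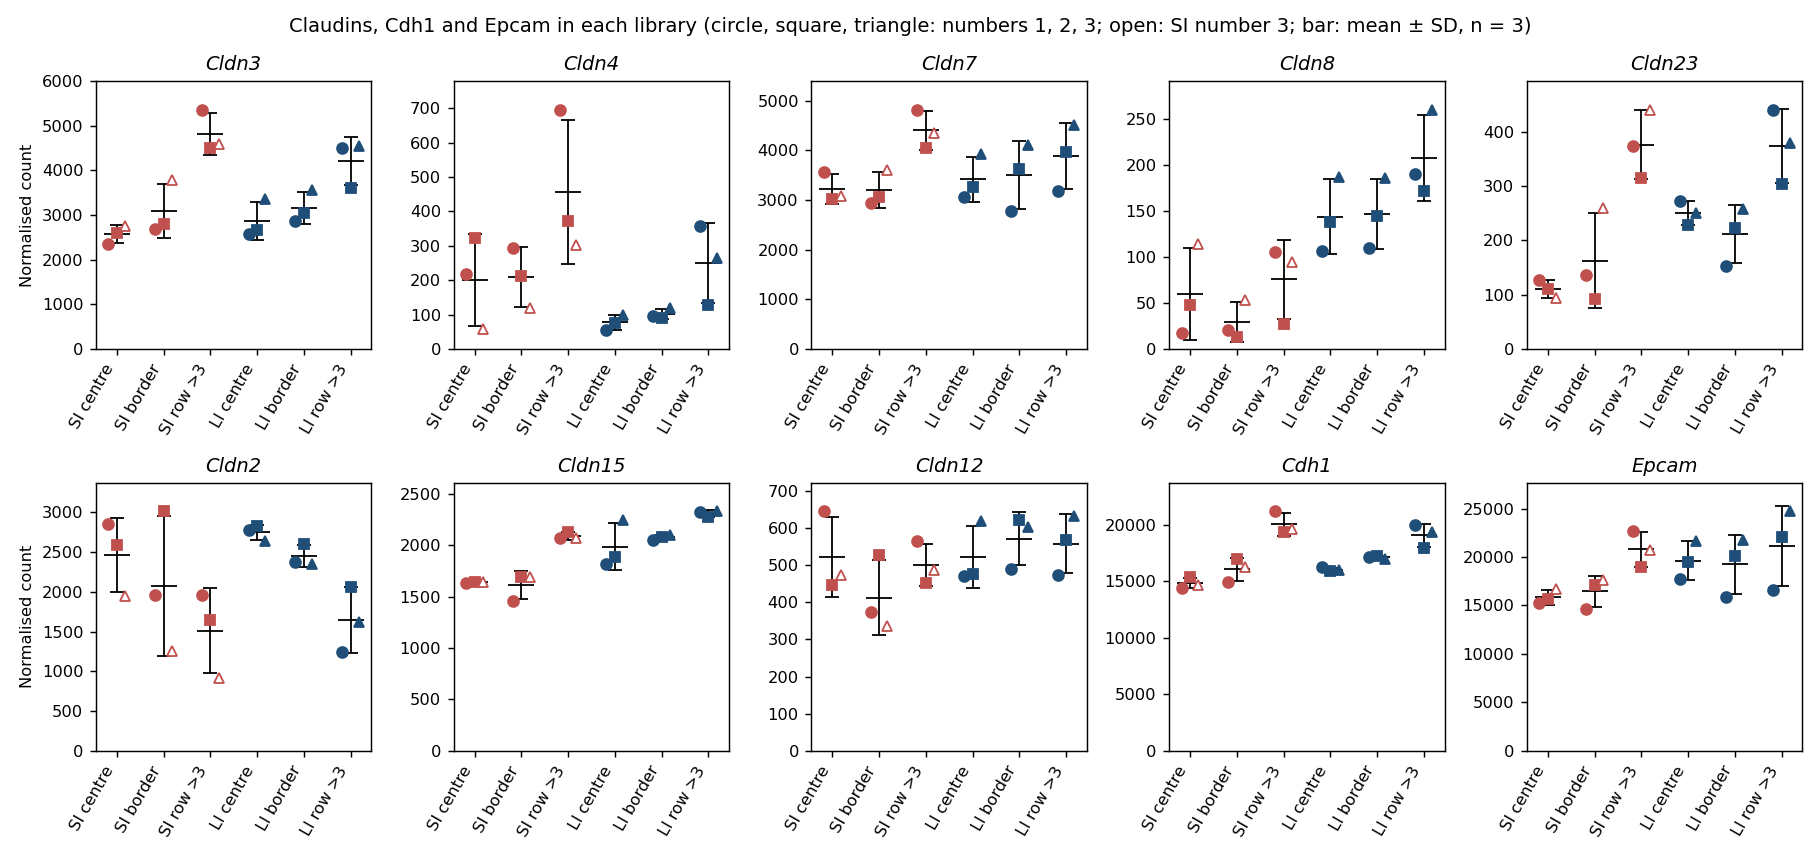
Normalised count (vertical axis, from 0) of each of the 10 genes in the 18 libraries, by group (horizontal axis). Circles, squares and triangles are replicate numbers 1, 2 and 3, open triangles are the 3 SI libraries of number 3, and bars are mean ± SD (n = 3). In both sites every row >3 library of Cldn3 and Cldn23 sits above every centre library, whereas Cldn2 sits lower in row >3 than in centre cells of the same number.

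Levels were compared between genes per length, as CPM per kilobase of exon (mean ± SD, n = 3). Epcam was the most abundant of the 10 in every group, from 352 ± 20.2 CPM per kilobase in SI centre to 490 ± 100.2 in LI row >3 cells. Cdh1 came next in each group, from 158 ± 4.92 in SI centre to 214 ± 10.2 in SI row >3 cells. Cldn3 was the most abundant claudin in each group, from 99.6 ± 8.38 in SI centre to 187 ± 17.5 in SI row >3 cells, followed by Cldn7, from 79.8 ± 11.4 in SI border to 110 ± 9.90 in SI row >3 cells.

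The channel-forming claudins came next. Cldn15 lay between 36.9 and 55.2 CPM per kilobase and Cldn2 between 22.1 and 41.9 as group means. Their libraries overlapped in SI centre, SI border and LI centre cells, while in both row >3 groups every Cldn15 library was above every Cldn2 library. The other 4 claudins were low: group means were between 4.73 and 6.85 for Cldn12, between 2.91 and 10.3 for Cldn23, between 2.17 and 12.2 for Cldn4 and between 0.610 and 4.48 for Cldn8. Among these 4 the order changed with the group, and most neighbours in the order overlapped between libraries. Cldn8, a claudin known from the distal colon, was the lowest of the 10 in 4 of the 6 groups, and Cldn4 was the lowest in LI centre and LI border cells. Cldn8 had between 9 and 276 raw counts per library, the lowest of the 10, and Cldn4 had between 48 and 1017.

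The makeup of the 8 claudins was described as the share of each in their summed level per length. Cldn3 held 37.0% ± 3.87 (SD, n = 3) in SI centre, 42.1% ± 4.69 in SI border and 47.1% ± 0.297 in SI row >3 cells. In the LI it held 37.0% ± 1.26, 39.3% ± 1.34 and 44.7% ± 4.14. The share of Cldn2 went the other way, with 13.3% ± 2.20, 10.9% ± 4.85 and 5.53% ± 1.68 in the SI and 13.6% ± 1.86, 11.6% ± 1.38 and 6.65% ± 1.94 in the LI. Cldn3 shares of row >3 and centre libraries did not overlap in either site, nor did those of Cldn2. Cldn7 stayed between 26.6% and 29.9% and Cldn15 between 12.2% and 15.4% as group means. The ratio of raw Cldn3 to Cldn2 counts, which needs no scaling between libraries, was 0.828, 1.0 and 1.42 in SI centre, against 2.73, 2.73 and 5.0 in SI row >3 cells. In LI centre cells it was 0.930, 0.947 and 1.27, and in LI row >3 cells it was 3.61, 1.74 and 2.81. Border libraries lay between 0.931 and 3.02 in the SI and between 1.17 and 1.51 in the LI.

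**Figure D2:**
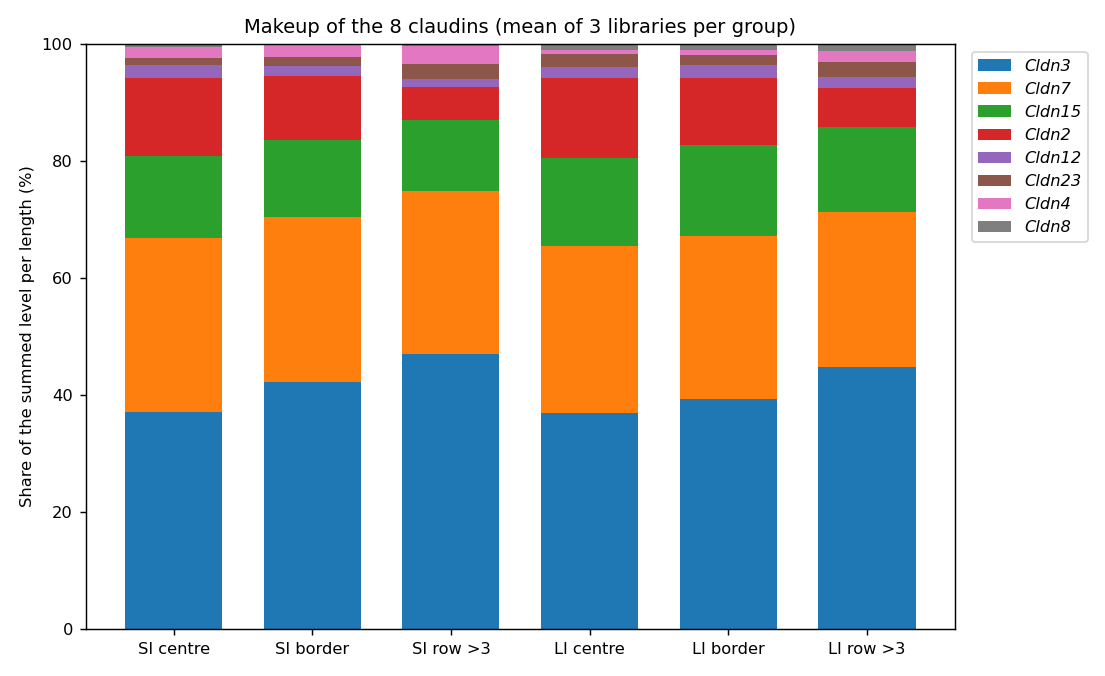
Share of each of 8 claudins in their summed CPM per kilobase (vertical axis, percent, from 0 to 100), as the mean of 3 libraries per group (horizontal axis). Cldn3 is at 37.0% in both centre groups, 47.1% in SI row >3 and 44.7% in LI row >3 cells, and Cldn2 is at 5.53% and 6.65% in row >3 cells.

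Row >3 cells, which hold low GFP, were compared with centre cells to see which junction genes differ once Lgr5+ cells leave the crypt base. Calls were made at an adjusted p under 0.05, by the quasi-likelihood test of edgeR and Benjamini and Hochberg's adjustment over all genes tested, and groups were read as apart where their CPM values did not overlap. In the SI, 3 of the 10 genes were called, all higher in row >3 cells: Cldn3, Cldn23 and Cdh1. The test called 13.2% of all genes tested, 7.35% as higher, and 27.3% of the 10223 genes with a mean of at least 5 CPM, to which all 10 belong, so the count itself is near the share of genes at such levels. Groups were apart for 7 of the 10, against 25.1% of all genes tested and 46.4% of the genes with at least 5 CPM, and 8 had an unadjusted p under 0.05, against 23.9% of all genes. The median log2 fold change of the 10 was 0.42, against 0.04 for the 10223 genes. With replicate numbers blocked within each site, 8 of 10 were called, 7 higher and 1 lower, and the test then called 22.8% of all genes. The share among genes with at least 5 CPM was not worked out for that fit. Without the 3 SI libraries of number 3, Cldn3, Cldn23 and Cdh1 were again the 3 called, against 17.1% of all genes, and with both changes the count was 8, against 23.7%.

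Cldn3, a sealing claudin and a receptor of an enterotoxin of Clostridium perfringens, was at 2363, 2595 and 2756 normalised counts in SI centre, against 5359, 4509.7 and 4589.5 in SI row >3 cells. Every row >3 library was above every centre library, with means of 2571 ± 198 and 4819 ± 469 (SD, n = 3). The log2 fold change was 0.91 (standard error, SE, 0.17, adjusted p = 0.000989, edgeR), and 1.0 without the libraries of number 3 (adjusted p = 0.000214, edgeR). Cldn3 passed in each of the 16 alternatives run for it.

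Cldn23, known from differentiated cells at the luminal surface of the colon, showed the largest fitted rise of the 10. It was at 126, 111 and 93.3 normalised counts in SI centre, against 373, 314 and 440.2 in SI row >3 cells. The lowest row >3 library held more than every centre library. The log2 fold change was 1.76 (SE 0.31, adjusted p = 0.000620, edgeR), and 1.54 without the libraries of number 3 (adjusted p = 0.000383, edgeR), and it passed in each of the 16 alternatives.

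Cldn4, the neighbour of Cldn3 and likewise a sealing claudin, was at 219.6, 324 and 59.7 normalised counts in SI centre, against 696, 372 and 301 in SI row >3 cells. The groups overlapped, since the centre library of number 2 was above the row >3 library of number 3. Within each number the row >3 library was the higher. The log2 fold change was 1.20 (SE 0.47, adjusted p = 0.116, edgeR). With the replicate block within site it was 1.22 (adjusted p = 0.00587, edgeR), and without the libraries of number 3 as well it was 0.95 (adjusted p = 0.0254, edgeR). Without the libraries of number 3 and no block it was 0.99 (adjusted p = 0.0695, edgeR). It also passed without SI centre number 2 (1.71, adjusted p = 0.0445, edgeR).

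Cldn7, the claudin that EpCAM binds, was at 3559.7, 3023 and 3078 normalised counts in SI centre, against 4815, 4041 and 4355 in SI row >3 cells, with no overlap. On the log2 scale the fold change was 0.46 (SE 0.17, adjusted p = 0.0961, edgeR), and with the replicate block within site it was 0.45 (adjusted p = 0.00312, edgeR). Without the libraries of number 3 it was 0.43 (adjusted p = 0.161, edgeR). Cldn8 was at 17.02, 47.9 and 115 in SI centre, against 106, 26.9 and 95.2 in SI row >3 cells. These overlapped in full, and number 1 differed in direction from numbers 2 and 3. Its log2 fold change was 0.34 (SE 0.56, adjusted p = 0.800, edgeR), and the block left it outside the threshold (adjusted p = 0.502, edgeR), as did leaving out the libraries of number 3, at 1.11 (adjusted p = 0.249, edgeR).

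Of the channel-forming claudins, Cldn2 was at 2853, 2583 and 1943 normalised counts in SI centre, against 1960.1, 1649.9 and 918 in SI row >3 cells. The row >3 library was the lower in all 3 numbers. The groups touched, since row >3 number 1 and centre number 3 lay close together, with the row >3 value the higher in normalised counts and the lower in CPM. The fitted change was -0.70 on the log2 scale (SE 0.27, adjusted p = 0.106, edgeR). With the replicate block within site Cldn2 passed, at -0.74 (adjusted p = 0.00162, edgeR), and at -0.58 without the libraries of number 3 as well (adjusted p = 0.0185, edgeR). Leaving out these libraries without the block gave -0.59 (adjusted p = 0.0548, edgeR). Cldn15 was at 1637, 1645 and 1640.4 in SI centre, against 2072, 2134 and 2068 in SI row >3 cells. The spread within each group was small against the gap between them. Its log2 fold change was 0.35 (SE 0.14, adjusted p = 0.0977, edgeR), 0.35 with the replicate block within site (adjusted p = 0.0159, edgeR) and 0.36 without the libraries of number 3 (adjusted p = 0.132, edgeR). The pore-forming pair thus went in opposite directions under the block. Cldn12, a claudin that lacks the usual PDZ-binding end, was at 645, 448 and 474 in SI centre, against 564, 451 and 487 in SI row >3 cells. Its groups overlapped and its log2 fold change was -0.06 (SE 0.21, adjusted p = 0.991, edgeR), and -0.10 without the libraries of number 3 (adjusted p = 0.921, edgeR).

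Cdh1 was at 14432, 15356 and 14704 normalised counts in SI centre, against 21166, 19344 and 19571 in SI row >3 cells, means of 14831 ± 475 and 20027 ± 993 (SD, n = 3). All row >3 libraries were above all centre libraries. The fitted log2 change was 0.44 (SE 0.11, adjusted p = 0.00744, edgeR), and 0.45 without the libraries of number 3 (adjusted p = 0.0119, edgeR). The call was lost without SI row >3 number 1 (0.40, adjusted p = 0.0527, edgeR) and with scaling by library size only (0.24, adjusted p = 0.348, edgeR). Epcam was at 15214, 15663 and 16723 in SI centre, against 22656, 19021 and 20724 in SI row >3 cells, again with no overlap. Its log2 fold change was 0.39 (SE 0.16, adjusted p = 0.112, edgeR), 0.40 with the replicate block within site (adjusted p = 0.00283, edgeR) and 0.44 without the libraries of number 3 (adjusted p = 0.119, edgeR).

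**Figure D3:**
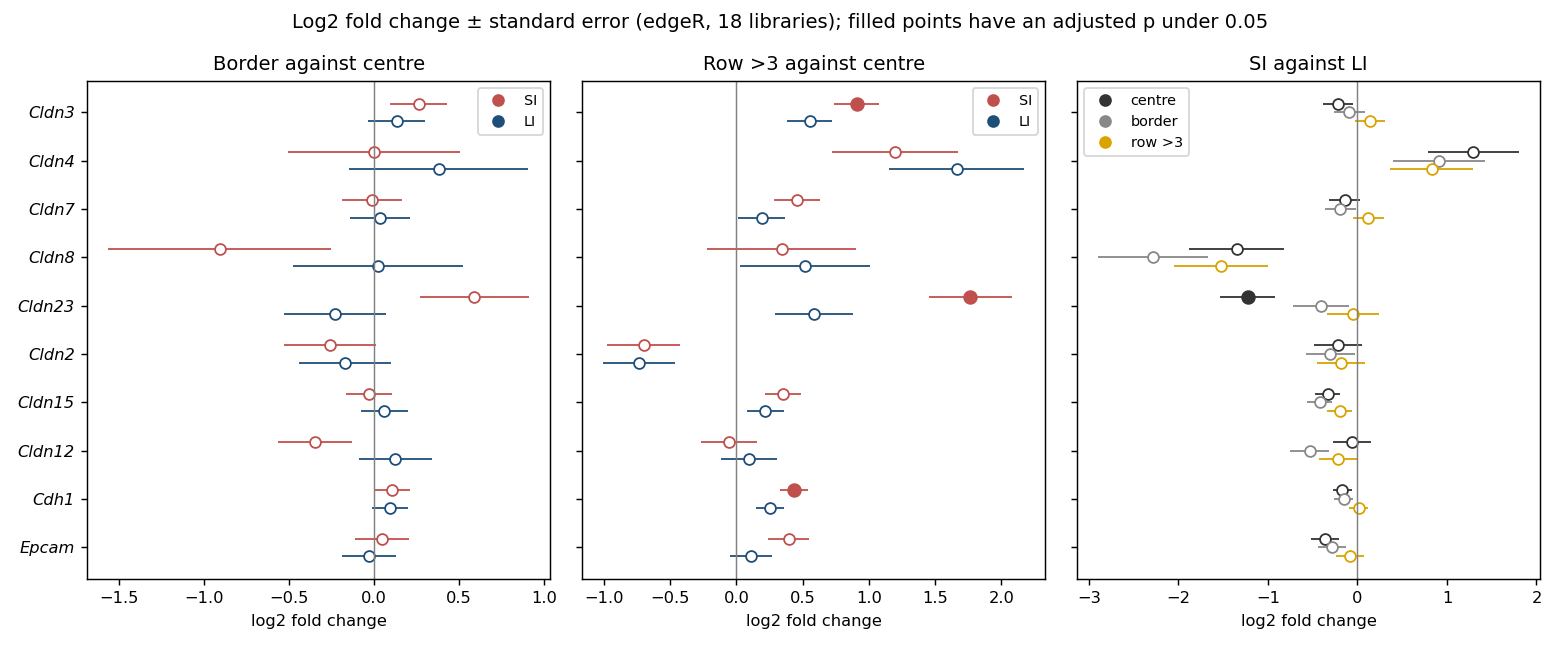
Log2 fold change (horizontal axis) ± standard error of each of the 10 genes (vertical axis) from edgeR for border against centre, row >3 against centre and SI against LI cells. Filled points have an adjusted p under 0.05: Cldn3, Cldn23 and Cdh1 in SI row >3 cells, and Cldn23 in centre cells between the sites.

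In the LI, edgeR called 0 of the 10 genes between row >3 and centre cells, against 0.0187% of all genes tested. Of the 10, 4 had an unadjusted p under 0.05, against 6.96% of all genes, and DESeq2 called 0, against 0.348%. Groups did not overlap for 6 of the 10, against 14.9% of all genes and 28.3% of genes with at least 5 CPM. With the replicate block within site, 3 were called, Cldn3 and Cldn4 higher and Cldn2 lower in row >3 cells, against 2.59% of all genes. The same 3 were called without the SI libraries of number 3, which also enter the estimate of spread, against 1.90% of all genes.

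Cldn2 was at 2776, 2825 and 2639 normalised counts in LI centre, against 1245, 2064 and 1624 in LI row >3 cells, with every row >3 library below every centre library. Its log2 fold change was -0.73 (SE 0.27, adjusted p = 0.574, edgeR), and -0.75 with the replicate block within site (adjusted p = 0.0143, edgeR). Cldn3 was at 2582, 2675 and 3362 in LI centre, against 4501, 3598 and 4559 in LI row >3 cells. The groups were again apart, with a log2 fold change of 0.55 (SE 0.17, adjusted p = 0.443, edgeR), and 0.56 with the block (adjusted p = 0.0190, edgeR). Cldn4 was at 56.5, 76.5 and 99.8 in LI centre, against 358, 128 and 265 in LI row >3 cells. Number 2 moved least, and the groups did not overlap. On the log2 scale the fold change was 1.66 (SE 0.51, adjusted p = 0.462, edgeR), and 1.58 with the block (adjusted p = 0.0246, edgeR).

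The remaining 7 genes passed in none of these 3 fits. Cldn23 was at 272, 227 and 249 normalised counts in LI centre, against 440.0, 304 and 378 in LI row >3 cells. These did not overlap, and the log2 fold change was 0.59 (SE 0.30, adjusted p = 0.738, edgeR). Cdh1 was at 16222, 15903 and 15964 in LI centre, against 19929, 17946 and 19357 in LI row >3 cells, also apart, with a log2 fold change of 0.25 (SE 0.11, adjusted p = 0.620, edgeR). Cldn15 was apart too, at 0.22 (SE 0.14, adjusted p = 0.846, edgeR). Cldn7, Cldn8, Cldn12 and Epcam overlapped between LI row >3 and LI centre libraries, with log2 fold changes of 0.19, 0.52, 0.10 and 0.11. The Epcam libraries of number 1 went from 17697 to 16599.8 normalised counts, while those of numbers 2 and 3 went from 19512 to 22055 and from 21678 to 24706.

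Whether the step from centre to row >3 cells differs between the sites was tested as an interaction. edgeR and DESeq2 each called 0 of the 10 genes, against 0% of all genes tested by edgeR and 0.558% by DESeq2, and 1 of the 10 had an unadjusted p under 0.05 in each tool, against 6.74% of all genes by edgeR. That gene was Cldn23, whose rise was larger in the SI by 1.18 on the log2 scale (SE 0.43, unadjusted p = 0.0115, adjusted p = 0.507, edgeR). For Cldn3 the difference was 0.35 (SE 0.24), for Cdh1 0.18 (SE 0.15) and for Epcam 0.28 (SE 0.22). For Cldn2 it was 0.03 (SE 0.38) and for Cldn4 it was -0.47 (SE 0.69). A larger number of calls in the SI is therefore not a measured difference between the sites for any of these genes. With the replicate block within site, and without the SI libraries of number 3, the count was 0 of 10 as well, against 2.32% and 3.27% of all genes. For the step from centre to border cells the counts were 0 by edgeR and the block, each against 0% of all genes, and 0 by DESeq2, against 0.00749%, and 0 had an unadjusted p under 0.05, against 2.65%.

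Some markers of other cells moved with the GFP gate. Of 8 goblet cell markers, all detected in all libraries, edgeR called 6 higher and 1 lower in SI row >3 than in SI centre cells. Their summed level was 689, 1189.5 and 11278 CPM in SI centre and 50795, 35313 and 33642 in SI row >3 cells of numbers 1, 2 and 3. In the LI it was between 7983 and 13241 in centre and between 17147 and 26422 in row >3 cells, with 0 called. The 8 LI absorptive markers summed to between 399 and 664 CPM in LI centre and between 1191 and 1901 in LI row >3 cells, again with 0 called, and 4 were apart and higher and 2 apart and lower. In the SI, 4 of 10 SI absorptive markers were called higher and 0 lower, 3 of 8 LI absorptive markers higher and 1 lower, and 2 of 6 enteroendocrine markers higher and 0 lower. The LI absorptive markers summed to 144, 173 and 346 CPM in SI centre and to 549, 538 and 2898 in SI row >3 cells, with number 3 far above the others. The SI absorptive markers lay between 318 and 548 and between 507 and 1907 CPM, and the enteroendocrine markers between 2.89 and 247 and between 39.2 and 462. None of 6 Paneth cell and 6 tuft cell markers was called. Paneth markers summed to 1689, 7840 and 1901 CPM in SI centre and 3183, 4592 and 215 in SI row >3 cells, and to at most 12.5 in the LI, while tuft markers summed to 44.8, 59.1 and 433 and to 386, 412 and 104. For both, the numbers differed in direction. The part of these cells in the levels of the 10 genes was not tested, and in bulk RNA fewer cells of a type and less RNA per cell cannot be told apart. Immune markers, mostly Cd74, summed to between 68.5 and 581 CPM in the SI and between 5.71 and 36.3 in the LI, with at most 8 counts of Cd3e in a library, and stromal and endothelial markers to between 0.365 and 11.9 CPM.

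Border cells were compared with centre cells next, since these are the Lgr5+ positions the study contrasts. In the SI, edgeR called 0 of the 10 genes, against 0.0112% of all genes tested, 0 had an unadjusted p under 0.05, against 8.98%, and DESeq2 called 0, against 0.782% of all genes. Without the libraries of number 3 edgeR called 0 of 10, against 0.963% of all genes, and the fitted change of Cldn23 went from 0.59 to -0.14. In the LI, edgeR called 0 of 10, against 0% of all genes, with 0 at an unadjusted p under 0.05, against 1.38%, and 0 by DESeq2. The replicate block within site called 0 in both sites, against 2.32% of all genes in the SI and 0% in the LI. No SI group was apart from the other for any of the 10, against 8.75% of all genes. In the LI, 2 genes were apart, against 5.44%. These were Cldn2, with 2376, 2605 and 2352 normalised counts in border and a log2 fold change of -0.17 (SE 0.27), and Cdh1, with 17125, 17254 and 16982 in border and a log2 fold change of 0.09 (SE 0.11).

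For Cldn2 and Cldn23 the spread among border cells was wider in the SI than in the LI. Cldn2 had 1959.8, 3009.5 and 1254 normalised counts in SI border cells of numbers 1, 2 and 3, and Cldn23 had 137, 92.0 and 259.8. The library of number 3 was the lowest of the 3 for Cldn2 and the highest for Cldn23. Cldn3 had 2679.9, 2802 and 3787 there, and in all 6 pairs of the same number over both sites the border library was above the centre library, by between 0.08 and 0.46 on the log2 scale. The same held for Cdh1, by between 0.05 and 0.15. For Epcam, Cldn7 and Cldn15 it held in 4 of the 6 pairs.

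Between row >3 and border cells of the SI, edgeR called 0 of the 10 genes, against 1.61% of all genes tested. Of the 10, 7 had an unadjusted p under 0.05, against 13.6% of all genes, and DESeq2 called 4, against 4.88% of all genes. Cldn3, with a log2 fold change of 0.65 (SE 0.17, adjusted p = 0.0540, edgeR), and Cldn23, with 1.17 (SE 0.31, adjusted p = 0.0557, edgeR), lay just outside the threshold. Without the libraries of number 3 both passed, at 0.88 (adjusted p = 0.00268, edgeR) and 1.68 (adjusted p = 0.00189, edgeR), against 7.23% of all genes. With the replicate block within site, 7 of 10 were called, against 9.78% of all genes, and all 7 were higher in row >3 cells: Cldn3, Cldn4, Cldn7, Cldn15, Cldn23, Cdh1 and Epcam. The 7 genes were also those whose groups were apart, all with row >3 higher, against 7.79% of all genes apart in that direction. Leaving out SI border number 3 alone gave calls for Cldn3 (0.85, adjusted p = 0.00706, edgeR) and Cldn23 (1.78, adjusted p = 0.00308, edgeR), while leaving out SI row >3 number 3 gave a call for Cldn3 (0.70, adjusted p = 0.0487, edgeR) and leaving out SI row >3 number 2 a call for Cldn23 (1.29, adjusted p = 0.0493, edgeR). Cldn2 did not fall from border to row >3 cells in number 1, with 1959.8 and 1960.1 normalised counts, and its log2 fold change was -0.44 (SE 0.27, adjusted p = 0.552, edgeR).

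In the LI, edgeR called 0 of 10 between row >3 and border cells, against 0% of all genes, with 3 at an unadjusted p under 0.05, against 3.72%, and 0 by DESeq2. Groups were apart for 6 genes, against 10.7% of all genes: Cldn3, Cldn4, Cldn15, Cldn23 and Cdh1 higher and Cldn2 lower. Their log2 fold changes were 0.42, 1.28, 0.16, 0.82, 0.16 and -0.56. The block within site called 0, against 0.0674% of all genes, and together with leaving out the SI libraries of number 3 it called Cldn3 (adjusted p = 0.0408, edgeR) and Cldn23 (adjusted p = 0.0345, edgeR), against 1.53%.

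Between the sites, the largest fold changes of the 10 were those of low claudins. In centre cells, edgeR called 1 of the 10 genes, Cldn23, lower in the SI, against 1.99% of all genes tested and 0.805% called lower. At an unadjusted p under 0.05 there were 5 of 10, against 14.5% of all genes. The Cldn23 normalised counts of 126, 111 and 93.3 in SI centre lay below the 272, 227 and 249 of LI centre cells. Its log2 fold change was -1.23 (SE 0.31, adjusted p = 0.0415, edgeR), and -1.08 without the SI libraries of number 3 (adjusted p = 0.00997, edgeR). The call was lost without any 1 of the 6 centre libraries, at adjusted p between 0.0737 and 0.145 (edgeR), and with no filter on low counts (adjusted p = 0.0658, edgeR). In border and row >3 cells the SI and LI libraries of Cldn23 overlapped, with log2 fold changes of -0.41 and -0.05.

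Cldn8 had the lower mean in the SI at each level. In border cells it had 21.3, 12.96 and 53.6 normalised counts in the SI and 110.1, 145 and 186 in the LI. The groups did not overlap, and the log2 fold change was -2.28 (SE 0.62, adjusted p = 0.0650, edgeR). Whether replicate numbers pair libraries between the sites was not settled. Deviations from group means of same-numbered SI border and LI border libraries had r of 0.20, 0.27 and 0.18. Over all levels r between the sites went down to -0.10. With the block over all libraries, which takes the numbers as shared by both sites, Cldn8 passed at -2.37 (adjusted p = 0.0103, edgeR), against 4.27% of all genes called. In centre cells it had 17.02, 47.9 and 115 in the SI and 107, 138 and 187 in the LI, and in row >3 cells it had 106, 26.9 and 95.2 in the SI and 190.4, 172 and 260.3 in the LI. The log2 fold changes were -1.35 and -1.52 (adjusted p = 0.224 and 0.121, edgeR). Without the SI libraries of number 3, which were the highest of the SI in centre and border cells, Cldn8 passed at all 3 levels, at -2.22, -3.25 and -1.61 (adjusted p = 0.00443, 0.00404 and 0.0107, edgeR). In these libraries the LI absorptive markers summed to 346, 1737 and 2898 CPM in centre, border and row >3 cells. The other SI libraries held at most 173, 199 and 549 CPM. Whether this bears on the difference between the sites was not tested.

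Cldn4 lay the other way. In centre cells it had 219.6, 324 and 59.7 normalised counts in the SI and 56.5, 76.5 and 99.8 in the LI, and the SI library of number 3 was the one inside the LI range. The fitted log2 change was 1.29 (SE 0.51, adjusted p = 0.226, edgeR), and 1.75 without the SI libraries of number 3 (adjusted p = 0.00363, edgeR). In row >3 cells it was 0.83 (SE 0.47, adjusted p = 0.440, edgeR), and 1.10 without them (adjusted p = 0.0278, edgeR). Without them, 3 of the 10 genes were called in centre cells, 1 in border and 2 in row >3 cells, against 10.9%, 8.10% and 12.2% of all genes.

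In border and in row >3 cells edgeR on all libraries called 0 of the 10, against 1.75% and 4.09% of all genes tested, with 3 and 1 at an unadjusted p under 0.05, against 13.9% and 15.7% of all genes. DESeq2 called 2 in border cells, Cldn8 and Cldn15, against 4.54% of all genes, and 0 in row >3 cells, against 6.34%. Cldn15 had 1459, 1693 and 1692 normalised counts in SI border and 2048, 2084 and 2100.0 in LI border cells. It was apart between the sites at each level, with log2 fold changes of -0.33, -0.42 and -0.20 (SE 0.14 each). Epcam had lower values in SI centre than in every LI centre library, with a log2 fold change of -0.36 (SE 0.16, adjusted p = 0.274, edgeR). For Cdh1 the log2 fold changes in centre, border and row >3 cells were -0.17, -0.15 and 0.01, and for Cldn3 they were -0.22, -0.09 and 0.14.

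The 10 genes were also compared by how they varied from library to library. Correlations of log2 CPM are descriptions, since the libraries share site, level and replicate number. Of the 45 pairs of these genes, 34 had a Pearson r above 0 over the 18 libraries. Cldn2 was below 0 with 8 of the 9 others, the exception being Cldn12 (r = 0.40). After the mean of each group was taken off, Cldn2 had r above 0 with Cldn4 (0.32), Cldn7 (0.05), Cldn12 (0.56) and Epcam (0.13). With the rest it stayed below 0, from -0.63 with Cldn23 to -0.02 with Cdh1. Cldn3 and Cdh1 had r = 0.91 over 18 libraries, 0.93 without the SI libraries of number 3 and 0.66 within groups, that is, after the mean of each group was taken off. Cldn7 and Epcam had r = 0.87 over 18 libraries, 0.88 without those 3 and 0.90 within groups, the highest within groups of the 45 pairs. In all 3 LI groups Cldn7 and Epcam were both lowest in number 1 and both highest in number 3.

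**Figure D4:**
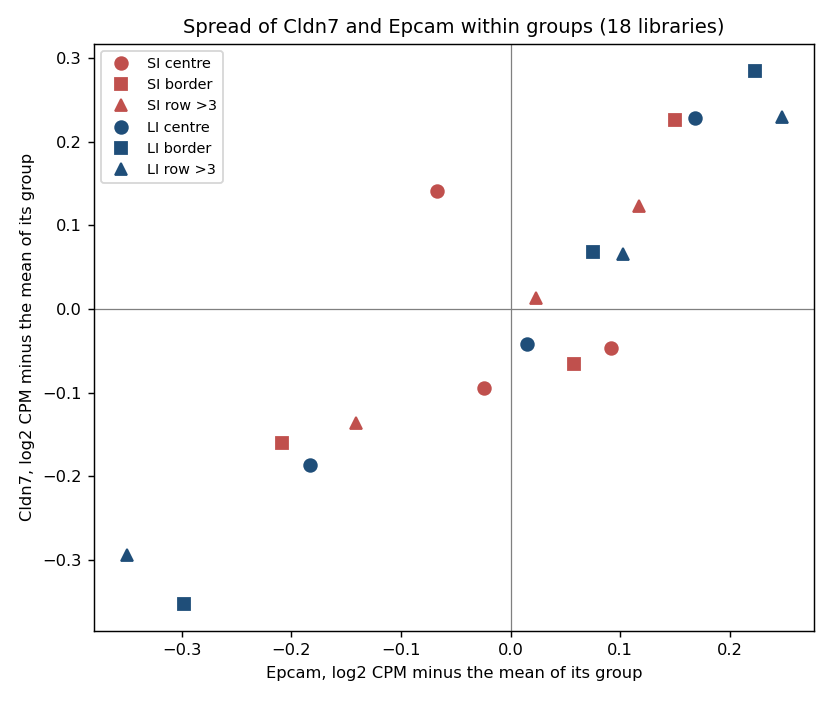
Cldn7 (vertical axis) against Epcam (horizontal axis), each as log2 CPM minus the mean of its group, in the 18 libraries. Colour marks the site and shape the level, and the points run from LI libraries of number 1 at the lower left to those of number 3 at the upper right, with r = 0.90 within groups.

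For each of the 10 genes, the genes with the most similar pattern were taken from 10222 others with a mean of at least 5 CPM, by Pearson r of log2 CPM over the 18 libraries. For Cldn2 these were Ncapg, a condensin subunit (r = 0.95), and Xpo4, an exportin (r = 0.94). For Cldn3 they were Clstn1 and Tmbim6 (r = 0.97 each), and for Cldn4 they were H2-K1, a class I major histocompatibility gene (r = 0.95), and Tapbp, tapasin, which loads peptides onto class I molecules (r = 0.90). For Cldn7 they were Dsc2, a desmosomal cadherin, and Smpdl3a (r = 0.94 each), and for Cldn8 Cd63 (r = 0.92). For Cldn23 they were Rab5c (r = 0.94) and Gltp (r = 0.93), for Cldn15 Golph3 (r = 0.95) and Nus1 (r = 0.93), and for Cldn12 Rpe (r = 0.88) and Fbxo3 (r = 0.87). For Cdh1 they were Pgd (r = 0.95) and Gmds (r = 0.93), and for Epcam Abhd13 and Ywhaz (r = 0.96 each). Within groups r was 0.58 for Pgd and 0.29 for Gmds, and 0.74 or more for the others named here. For Cldn7 it was 0.97 with Dsc2 and 0.91 with Smpdl3a, and for Epcam 0.93 with Abhd13 and 0.92 with Ywhaz. Each of these was above the 0.90 of Cldn7 with Epcam, so that likeness was not particular to the pair. Without the SI libraries of number 3, r lay between 0.82 and 0.97 over 15 libraries.

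Further junction genes and EpCAM partners were taken as 4 lists. Of 28 tight junction partners, 6 were higher and 0 lower in SI row >3 than in SI centre cells by edgeR, and of 14 adherens junction partners 5 were higher and 1 lower. Of 6 desmosome genes 3 were higher and 0 lower, and of 8 EpCAM partners and proteases 4 were higher and 1 lower. The test called 13.2% of all genes and 27.3% of the 10223 genes with a mean of at least 5 CPM. Not all partner genes were detected in every library. Median log2 fold changes were 0.36, 0.40, 0.64 and 0.58, against 0.04 for the 10223 genes. With the replicate block within site the 4 counts were 13 higher and 2 lower, 8 and 1, 6 and 0, and 5 and 1, against 22.8% of all genes called. Without the SI libraries of number 3, 29 of the 56 genes were called, against 20 with them and 17.1% of all genes.

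Among tight junction partners, Prkcz, the polarity kinase aPKC zeta, was at 728 ± 92.6 normalised counts (SD, n = 3) in SI centre, against 1482 ± 56.2 in SI row >3 cells, and rose by 1.03 on the log2 scale (adjusted p = 0.000682, edgeR). Arhgef2, a RhoA exchange factor held at junctions, rose by 1.45 (adjusted p = 0.00115, edgeR), Tjp1, the scaffold ZO-1 that claudins bind, by 0.72 (adjusted p = 0.00175, edgeR), and F11r, the adhesion molecule JAM-A, by 0.84 (adjusted p = 0.00279, edgeR). Tjp1 and Prkcz also rose over SI border cells, by 0.63 and 0.71 (adjusted p = 0.0289 and 0.0499, edgeR), the only tight junction partners called in that comparison by this fit. Without 1 library at a time, between 0 and 10 of the 56 partner genes were called there, so neither call held in every such fit.

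Among adherens junction partners, Pvrl1, which encodes nectin-1, rose by 1.22 (adjusted p = 0.00132, edgeR), and Ctnna1, the alpha-catenin that ties E-cadherin to actin, went from 5674 ± 384 to 8715 ± 1011 normalised counts (SD, n = 3), a rise of 0.62 (adjusted p = 0.00163, edgeR). Cdh17, an intestinal cadherin, rose by 1.13 (adjusted p = 0.00202, edgeR), and Camsap3, which anchors microtubule minus ends at junctions and apically, by 0.82 (adjusted p = 0.00206, edgeR). The desmosome genes Pkp3, Dsg2 and Pkp2 rose by 0.91, 0.73 and 0.52 (adjusted p = 0.00178, 0.00242 and 0.0308, edgeR).

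Among EpCAM partners, both Kunitz inhibitors of matriptase, the protease that cleaves EpCAM, rose. Spint2 went from 5641 ± 336 normalised counts (SD, n = 3) in SI centre to 10647 ± 847 in SI row >3 cells, a rise of 0.92 (adjusted p = 0.000193, edgeR). Spint1 rose by 1.07 (adjusted p = 0.000245, edgeR), and both also rose over SI border cells, by 0.57 and 0.81 (adjusted p = 0.0432 and 0.0185, edgeR). The calls over border cells likewise did not hold in every fit without 1 library. Tspan8, a tetraspanin, rose by 1.03 (adjusted p = 0.00132, edgeR). Cd44, a Wnt target known from crypt bases, fell from 5389.6 ± 1171 to 1031 ± 579 normalised counts, a log2 fold change of -2.39 (adjusted p = 0.00127, edgeR).

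**Figure D5:**
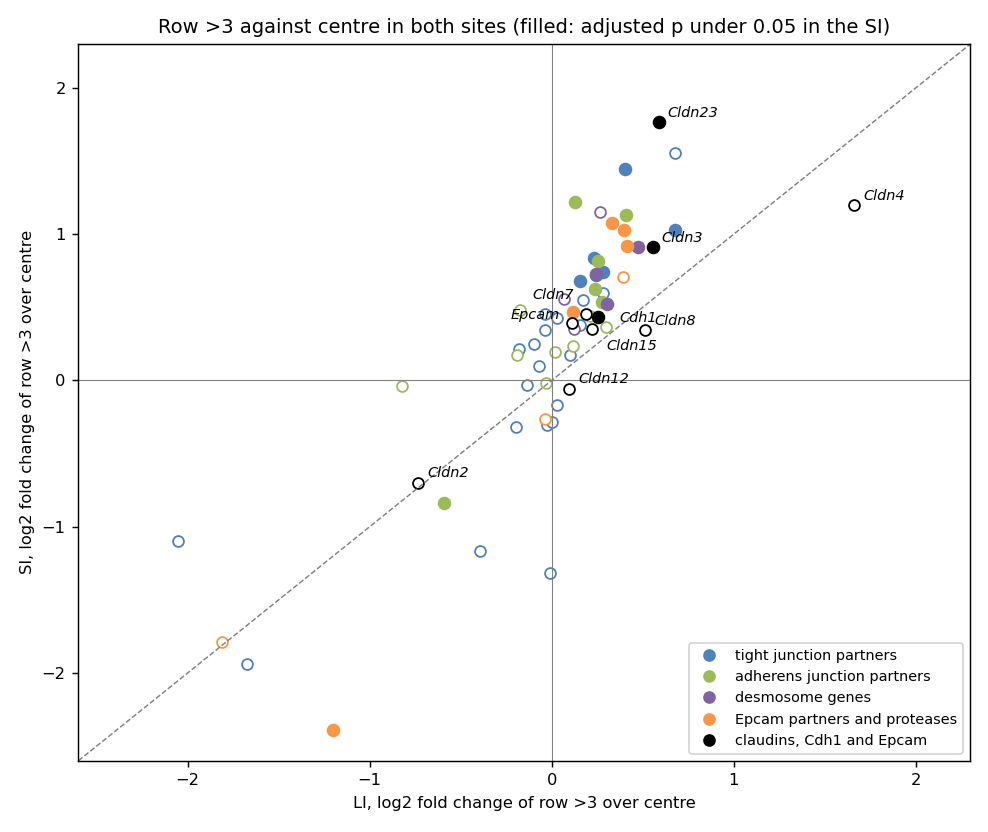
Log2 fold change of row >3 over centre cells in the SI (vertical axis) against that in the LI (horizontal axis), for the 10 genes and 56 junction and EpCAM partner genes, coloured by list. Filled points have an adjusted p under 0.05 in the SI, none has in the LI, and the dashed line marks equal change in both sites. Cldn2 lies near the line and Cldn23 above it.

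In the LI, edgeR called 0 of these 56 genes between row >3 and centre cells, against 0.0187% of all genes, and DESeq2 called 1, against 0.348%. Blocking replicate numbers within site gave 3 higher and 3 lower, against 2.59% of all genes called. The difference between the sites in this step was called by edgeR for 0 of 56, and for 7 with the replicate block within site, all with the more positive change in the SI, against 2.32% of all genes called. In row >3 cells, 6 of 56 were higher and 2 lower in the SI than in the LI, against 4.09% of all genes tested. Tjp1 had 3893 ± 423 normalised counts (SD, n = 3) in SI and 2336 ± 183 in LI row >3 cells, a log2 fold change of 0.68 (adjusted p = 0.00727, edgeR), and Cd44 was lower in the SI by a log2 fold change of -2.09 (adjusted p = 0.00744, edgeR). The count of calls in row >3 cells rose from 8 to 24 without the SI libraries of number 3, while the share of all genes called rose from 4.09% to 12.2%.

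Beyond the 8 claudins, 16 further claudin symbols were in the count table and 11 were tested, none of them called in any of the comparisons. Cldn25 had 6445 counts over all libraries, but its gene identifier is that of Cldnd1 in GENCODE M21, so it is not counted as a claudin here. Cldn14 had 129, Cldn20 had 97 and Cldn10 had 28 counts over all 18 libraries, and each of the others at most 5. The repressors of Cdh1 were near 0 as well: over the 18 libraries Snai1 had 47, Zeb1 had 46, Zeb2 had 64 and Twist1 and Twist2 had 2 counts each, Snai2 had 0, and the mesenchymal cadherin Cdh2 had 8.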

How the data were processed

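RNA of at least 270 pg from sorted cells was made into libraries with a SMART-Seq Stranded kit and sequenced as paired reads. The authors demultiplexed reads with bcl2fastq, trimmed them with Skewer, aligned them to mm10 and deposited raw counts per gene from STAR for 18 libraries. Which annotation release and strand setting were used for counting is not given in the sources. They also deposited normalised counts, a signal made by dividing the counts of each library by its DESeq2 size factor. The normalised table lists 24814 genes. Libraries held between 8312093 and 31940965 counts, which left at least 9 counts of Cldn8 and 48 of Cldn4 in each library.

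Raw counts of 26717 genes with a mean count above 0 were fitted in R 4.3.3 with edgeR 4.0.16 (TMM factors, robust quasi-likelihood, limma 3.58.1), with 6 groups and 12 residual degrees of freedom, after a check on simulated data. A gene was called at an adjusted p under 0.05 (Benjamini-Hochberg). Correlations used log2 CPM with a prior count of 2, and levels per kilobase used exon lengths from GENCODE M21, which held 42462 of 43346 gene identifiers. Figures were drawn with Python 3.11.15 and matplotlib 3.10.9. Alternatives were DESeq2 1.42.0, RLE factors, library size only, filterByExpr or no filter, only the groups compared, replicate blocks, and fits without 1 library or without the 3 SI libraries of number 3. The block together with leaving out these 3 was added after seeing the data.

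The labels give replicate numbers 1 to 3 in each group, and the data were used to check whether these pair the libraries. Deviations from group means of same-numbered libraries had r between 0.358 and 0.783 within the SI and between 0.444 and 0.684 within the LI (9 pairs each, 10223 genes), so numbers were taken to pair libraries within a site. Between sites r was between -0.10 and 0.44 (27 pairs), and all border pairs were above 0.1. Whether numbers pair libraries between the sites was therefore left unsettled.

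All 10 genes are named. Of the partner lists, at most 4 genes each are named, those with the smallest adjusted p over the comparisons, and for each of the 10 genes the 2 others with the highest r. The genes and lists were chosen with earlier results of these data known. A few items that these rules or lists would give are not reported here.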

Additional observations from a re-analysis of the deposited data

How the results depend on the processing

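For 25 fold changes of single genes (row >3 against centre or border within a site, or one site against the other), 307 alternative values kept direction and side of the threshold, 70 gained the call, 9 lost it and 0 reversed. The 25 were chosen because they were called in the fit reported, with a replicate block, without the 3 SI libraries of number 3, or by DESeq2. Gained calls and the lack of reversals thus follow in part from that choice, and they do not describe fold changes outside it. Border against centre, and the differences between the sites in a step between levels, were not among these 25. For example, Cldn23 went from 0.59 to -0.14 in SI border against centre without the 3 SI libraries of number 3. The order of the 10 genes by level per length was set again from the deposited normalised counts in each of the 6 groups. Most of the 10 genes kept their rank in every group, and the levels themselves were not set against the replicate spread. The 20 correlations with the most similar genes lay between 0.82 and 0.97 without the 3 SI libraries of number 3. Within groups, r of Cdh1 fell to 0.58 with Pgd and to 0.29 with Gmds. The replicate block within site raised the number of the 10 genes called from 3 to 8 for SI row >3 against centre, from 0 to 7 for SI row >3 against border and from 0 to 3 for LI row >3 against centre, and changed no other count of them. With the 3 SI libraries of number 3 left out as well, these were 8, 7 and 3, and LI row >3 against border went from 0 to 2. Leaving out those libraries alone gave 2 for SI row >3 against border, 3 for LI row >3 against centre, and 3, 1 and 2 (from 1, 0 and 0) between the sites in centre, border and row >3 cells. The block over all libraries gave 7, 2 and 1, 1 for SI row >3 against centre, SI row >3 against border, and border and row >3 cells between the sites. DESeq2 gave 5 and 4 for the first 2 and 2 for border cells between the sites. For SI row >3 against border, RLE factors gave 1 and filterByExpr 2. For border cells between the sites, library size only and filterByExpr gave 1 each, and no filter gave 0 in centre cells. Without 1 library at a time the counts were 2 to 4 for SI row >3 against centre, 0 to 2 against border, and 0 to 2 in centre and 0 to 1 in border cells between the sites.

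Of the 56 partner genes, the block within site raised the number called from 20 to 36 for SI row >3 against centre, from 4 to 22 for SI row >3 against border, from 0 to 3 for SI border against centre and from 0 to 6 for LI row >3 against centre, and from 0 to 7 for the difference between sites in the step to row >3. With the 3 SI libraries left out as well these were 36, 28, 4, 9 and 19, with 2 for LI row >3 against border and 1 for the difference in the step to border. Without those libraries alone, SI row >3 against border had 14, SI border against centre 1, LI row >3 against centre 3, the difference in the step to row >3 4, and the sites 9, 7 and 24 in centre, border and row >3 cells (from 1, 0 and 8). DESeq2 gave 14 for SI row >3 against border, 1 for LI row >3 against centre, and 3, 5 and 22 between the sites. The block over all libraries gave 12 for SI row >3 against border and 6, 5 and 15 between the sites. Only the groups compared gave 0 for SI row >3 against border, 2 for LI row >3 against centre, and 3, 1 and 5 between the sites. Library size only gave 1 for SI row >3 against border and 2 and 2 in centre and border cells between the sites, filterByExpr 9, 2 and 1, and no filter 2 for the first and 0 in centre cells. Without 1 library at a time, counts were 0 to 1 for SI border against centre, 0 to 10 for SI row >3 against border, 0 to 1, 0 to 2 and 2 to 14 between the sites, and 0 to 1 for the difference in the step to row >3.

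The share of all genes called moved with the same settings, and the counts above are to be read against it. For fits other than the one reported, the share among genes with a mean of at least 5 CPM was not worked out. For SI row >3 against centre it was 13.2% in the fit reported, 22.8% with the block within site, 23.7% with the 3 SI libraries left out as well, 17.1% without those libraries alone, 16.9% with the block over all libraries and 15.9% by DESeq2. For SI row >3 against border the same settings gave 1.61%, 9.78%, 12.5%, 7.23%, 4.65% and 4.88%, with 1.53% under RLE factors, 4.48% under filterByExpr, 0.808% with library size only, 0.556% with no filter and 0% with only the groups compared. For LI row >3 against centre, 0.0187% became 2.59%, 6.78% and 1.90% under the first 3 of these alternatives, 0.348% by DESeq2 and 1.03% with only the groups compared. With the block, and with the block and those libraries left out, LI row >3 against border had 0.0674% and 1.53%, SI border against centre 2.32% and 2.29%, and the difference in the step to row >3 2.32% and 7.63%. Without those libraries alone, SI border against centre had 0.963% and the difference in the step to row >3 3.27%. Between the sites, centre, border and row >3 cells had 1.99%, 1.75% and 4.09% in the fit reported, 10.9%, 8.10% and 12.2% without the 3 libraries, 5.61%, 4.27% and 6.89% with the block over all libraries, 4.64%, 4.54% and 6.34% by DESeq2, 4.84%, 4.24% and 8.57% under filterByExpr, 2.31%, 1.59% and 3.83% with library size only, 0.925%, 0.741% and 1.93% with no filter, and 2.61%, 1.16% and 3.83% with only the groups compared.

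Depth left as few as 9 counts of Cldn8 and 48 of Cldn4 in a library, so counting error is larger for these than for the abundant genes. The cause of these changes was not tested. Cldn3 and Cldn23 passed for SI row >3 against centre in all 16 alternatives, while the Cldn23 call between centre cells did not survive leaving out any 1 centre library.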
